A study of Mus musculus with 6 samples.

Results

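Cytosolic ribosomal proteins are the protein parts of the ribosome, which has a small 40S subunit that reads the mRNA and a large 60S subunit that joins the amino acids. They were described here in whole testes of Alkbh1 knockout mice (KO) and wild-type mice (WT). Members were all probe sets whose platform gene symbol is that of a ribosomal protein (Rpl or Rps with a number, Rpsa, Rplp0, Rplp1 or Rplp2), without pseudogenes and the S6 kinases. This rule took 106 of 45037 probe sets, naming 50 genes. Each reads 1 stretch of a transcript through several short probes, and 24 of the genes have more than 1. Another 110 probe sets list a ribosomal protein gene together with other genes. They are summarised as a group and no gene is named from them. Listed only in that way were 31 ribosomal protein symbols, Rplp1, Rpl10, Rpl3, Rpl36a and Rpl36al among them. The 50 genes are 21 of the 40S subunit, 22 of the 60S subunit, 6 paralogs and Rps19bp1. They do not cover the whole ribosome.

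The study compared testes of Alkbh1-/- mice with those of wild-type mice, with 3 biological replicates of each, all 12 weeks old and on a background labelled C57/BL6 (spelled C53/BL6 in the genotype label). Whether a replicate is 1 animal or a pool is not stated. Alkbh1 encodes a dioxygenase of the AlkB family, and the sources used here do not say which part of the gene was removed. RNA of each replicate was hybridised to 1 Affymetrix array, giving a normalized log2 value per probe set, and the number of arrays limits the precision. The testis is a mixture of germ cells and somatic cells, so fewer cells of a type and less RNA per cell cannot be told apart.

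All members of a ribosome are needed in near equal numbers, and cells make them together. Most of their mRNAs begin with a tract of pyrimidines, the TOP tract, through which the mTOR pathway controls their translation. In spermatogenesis the X chromosome is silenced during meiosis. Several ribosomal protein genes lie on the X chromosome, and autosomal paralogs such as Rpl39l and Rpl10l, active in germ cells, are known as their stand-ins. Rpl10l was not analysed here.

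At 1 probe set Alkbh1 read 8.43, 8.65 and 8.72 log2 in WT and 5.76, 5.30 and 5.20 in KO, with no overlap (−3.18 ± 0.15 SE, limma adjusted p = 0.000582). At another it differed by −1.02 ± 0.12, also without overlap, and did not pass (limma adjusted p = 0.0697). Spermatid markers (8 of 8 tested, Prm1 and Tnp1 among them) had a mean log2 value from 14.07 to 14.15 in WT and from 14.12 to 14.14 in KO. Spermatocyte markers (6 of 6) ran from 12.36 to 12.55 and from 12.47 to 12.50, and Sertoli cell markers (7 of 7) from 9.04 to 9.08 and from 8.97 to 9.02. All Sertoli means of KO thus lay below those of WT, with 4 of the 7 genes lower, 3 higher and 0 passing (limma). Group means overlapped for the markers of spermatogonia, Leydig cells, peritubular muscle, macrophages and lymphocytes, endothelium and erythroid cells. The 7 markers of fat and epididymis had 3 tested members, with means from 6.75 to 7.67 in WT and from 7.06 to 8.18 in KO. That spread was mostly Fabp4, at 6.11, 5.77 and 8.38 in WT and 6.84, 9.80 and 7.09 in KO. Over all arrays Adipoq ran from 8.31 to 8.69 and Lcn8 from 5.88 to 6.15. WT replicates 1 and 2 stood apart from the other arrays: the RNAs spiked in for labelling averaged 6.67 and 9.25 log2 on them and from 7.48 to 7.96 on the rest. The 95th percentile of log2 values was 11.43 on WT replicate 1 and from 11.53 to 11.55 on the others.

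Ribosomal protein transcripts gave some of the brightest signals in the testis, and none passed the test of KO against WT. Of the 106 probe sets 64 (60.4%) had a mean above 11.51, the 95th percentile of all probe sets. Of the 91 bright enough to be tested, 0 passed the threshold (limma adjusted p under 0.05 over 27022 probe sets), 1 had an unadjusted p under 0.05, and the smallest adjusted p was 0.936. Over all tested probe sets, 0.0407% passed (0.0333% higher and 0.0074% lower in KO) and 5.11% had an unadjusted p under 0.05. The 95% interval of the difference lay wholly within a 1.2-fold change either way for 73 of the 91 (80.2%), against 51.7% of all tested probe sets, and within 1.5-fold for 89. These shares are not matched for brightness. With 1 probe set per gene the 1.2-fold share was 87.2% for the family and 57.8% for all genes. It was 84.4% for translation initiation, 81.8% for elongation and termination and 71.1% for ribosome assembly genes. For RNA polymerase I genes it was 62.5%, and for mTOR and TOP mRNA regulators 44.4%. The remaining 15 probe sets had a mean under 6.02 log2 and were left out of the test. For Rpl14, Rps16 and Rpl3l no other probe set was listed, so 47 of the 50 genes were tested. The rest of the 15 belong to genes that also have a tested probe set.

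The probe sets lay high on the scale, with a median mean of 12.36 log2 against 6.63 over all probe sets. How bright a probe set is also depends on its probes, so levels are not ranked between genes as amounts of mRNA. The highest means belonged to Rps29 (14.30), Rpl41 (14.25), Rps28 (14.03), Rps20 (14.02) and Rps7 (13.90), where the highest value on any array was 15. Rpl41, which encodes a very short basic peptide of the 60S subunit, read 14.23, 14.25 and 14.26 in WT and 14.23, 14.27 and 14.26 in KO, and the groups overlapped (0.005 ± 0.036). At another bright probe set of Rpl41 all KO values lay above all WT values as deposited (0.040 ± 0.037). Among genes with a tested probe set, the lowest values of the brightest one were those of Rpl12 (6.27), Rps6 (6.44), Rps27 (7.33), Rpl27a (7.74) and Rpl39 (8.57). Probe sets of 1 gene could differ widely: the 6 of Rps18 had means from 3.19 to 13.03, and 9 genes had probe sets on both sides of the level filter. Members also share probes with other transcripts more often, since 40.6% of them carry the suffix _x_at or _s_at that marks such probes, against 9.89% of probe sets outside the family.

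**Figure D1:**
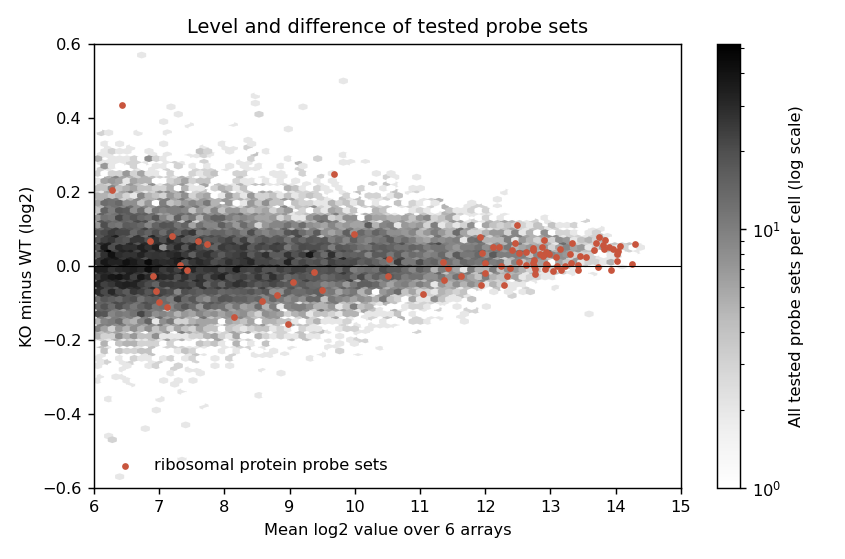
Mean log2 value over the 6 arrays (x axis) against the KO minus WT difference in log2 (y axis) for all tested probe sets (grey cells, darker for more probe sets on a log scale) and the 91 ribosomal protein probe sets (red). Most members lie at the bright end near a difference of 0, and 96 tested probe sets fall outside the plotted range of differences.

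The start sites of these genes carried the TOP letters more often than start sites in general. Of 52 RefSeq start sites of 44 member genes (build GRCm38.p6), 8 (15.4%) had a C followed by 4 pyrimidines (C or T) exactly at the annotated start on the gene's own strand, against 2.51% of 32851 start sites of all genes. Within 10 bases of the start the shares were 53.8% and 30.7%. The letters describe the annotation and say nothing of use in testis. Examples from 10 bases before to 20 bases from the start onward are shown because 4 of them have a C followed by 4 pyrimidines at the start and the last pair, Rpl39l and Rpl39, is the paralog pair described further on. Capitals begin at the C nearest to the start that 4 pyrimidines follow and go on to the last pyrimidine in a row. Pyrimidines just before that C are left in lower case. Rps6 lies at chr4:86857348-86857377 (minus strand), Rpl38 at chr11:114668570-114668599 (plus), Rps18 at chr17:33955646-33955675 (minus), Rps10 at chr17:27635225-27635254 (minus), Rpl39l at chr16:10170218-10170247 (plus) and Rpl39 at chrX:37085203-37085232 (minus).
Rps6: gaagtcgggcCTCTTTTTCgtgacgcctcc
Rpl38: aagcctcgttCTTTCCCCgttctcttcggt
Rps18: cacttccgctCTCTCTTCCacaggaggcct
Rps10: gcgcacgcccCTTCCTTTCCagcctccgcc
Rpl39l: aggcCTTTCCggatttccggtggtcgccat
Rpl39: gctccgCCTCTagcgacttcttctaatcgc
In Rpl39l the first capital lies 6 bases before the start and in Rpl39 4 bases before it.

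Within a genotype the arrays differed little, and less than for other transcripts. The median residual SD was 0.059 log2 for the 91 probe sets and 0.1 for all tested probe sets. Part of that goes with brightness: above a mean of 12 log2 it was 0.050 for 58 members and 0.073 for 1355 other probe sets. What spread there was ran in common through many members. WT replicate 1 was the lowest array for 53 of the 91 probe sets (58.2%, against 32.7% of all tested probe sets). WT replicate 2 was the highest for 36 (39.6%, against 23.6%). The 95th percentile of all log2 values was also lowest on WT replicate 1 (11.43, against 11.53 to 11.55 on the other arrays). Such shares were not counted for bright probe sets outside the family, so whether the pattern is particular to the family was not tested. With 1 probe set per gene, the brightest, the median deviation from the mean of 6 arrays was −0.064 on WT replicate 1, 0.036 on WT replicate 2 and −0.002 on WT replicate 3. On the KO arrays it was 0.006, 0.010 and 0.024, inside the range of WT. The 3′ minus 5′ difference of control probe sets, a sign of RNA quality and labelling, was also lowest on WT replicate 1 (0.07 log2 for Gapdh and 0.48 for actin) and highest on WT replicate 2 (0.34 and 0.70). On the other arrays it ran from 0.10 to 0.16 and from 0.54 to 0.56, and its part in the array pattern was not tested.

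**Figure D2:**
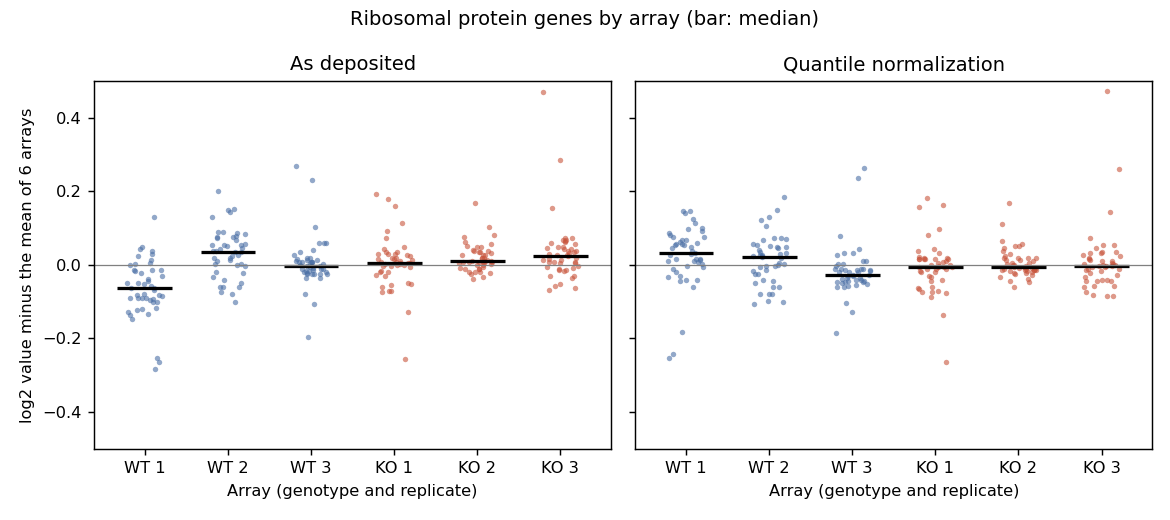
Deviation of each of the 47 ribosomal protein genes from its mean over 6 arrays (log2, y axis) on each array (x axis), as deposited (left) and after quantile normalization (right). Points are genes, bars are medians, WT is blue and KO red. As deposited, WT replicate 1 has the lowest median (−0.064). After quantile normalization it has the highest (0.033). Rps6 on WT replicate 2 and Rps25 on WT replicate 3 lie below the plotted range in both panels.

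The family as a whole lay slightly higher in KO in the deposited values, and this did not hold without WT replicate 1 or after quantile normalization. As deposited, 60 of the 91 probe sets (65.9%) had a difference above 0, against 56.4% of all tested probe sets. With 1 probe set per gene, 35 of 47 genes (74.5%) had a difference above 0, against 55.9% of all 13897 genes, with a median of 0.031 log2 against 0.012. Without WT replicate 1 the count was 23 (48.9%, against 50% of all genes) and the median −0.001. Without WT replicates 1 and 2 it was 28 (59.6%, against 48.2%). After quantile normalization 19 genes (40.4%) had a difference above 0, against 48.3% of all genes, and the median was −0.008 against −0.003. With each array centred on its median, 29 genes (61.7%) were above 0, against 50.1%. The sign of the median thus turned between these settings, and what part the scaling or WT replicate 1 has in it was not tested. Bright probe sets outside the family leaned the same way as deposited, with a median of 0.041 over the 1355 above 12 log2 and 0.029 over the 58 members. The 96 tested probe sets that list several genes had a median of 0.016, with 73 above 0, and 0 passed (limma, 1 at an unadjusted p under 0.05).

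Among the 20 tested 40S genes, 17 had a difference above 0 (85%, against 55.9% of all genes), with a median of 0.039 log2. Their mean difference was 0.061 as deposited and 0.028 after quantile normalization. With Rps6 also left out, a step chosen after the values were seen, it was 0.007. Rps3a1, which encodes a structural protein of the 40S subunit (eS1), came closest to passing of all members. It read 12.40, 12.42 and 12.46 in WT and 12.51, 12.56 and 12.54 in KO. All KO values lay above all WT values, by a mean of 0.11 ± 0.04 (SE) or 1.08-fold (limma adjusted p = 0.936). After quantile normalization the difference was 0.071 and the groups overlapped. Rps19, which is needed to mature the small subunit and is mutated in Diamond-Blackfan anaemia, read 11.87, 11.87 and 11.90 in WT and 11.97, 11.94 and 11.96 in KO. The groups were again apart, by 0.079 ± 0.044 (limma adjusted p = 0.993). After quantile normalization the difference was 0.045 and WT replicate 1 was the highest array.

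Rps29, a small zinc-binding protein of the 40S subunit, had 3 probe sets with like differences. One of them read 14.02, 14.07 and 14.03 in WT and 14.09, 14.09 and 14.10 in KO, without overlap (0.053 ± 0.037, and 0.012 with overlap after quantile normalization). The others differed by 0.047 and 0.058, with overlapping groups. Rps29 lies on chromosome 12, like Alkbh1, and so does Rps7, whose probe sets differed by 0.052 and −0.012.

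The widest intervals of the family belonged to Rps6 and Rps25. Rps6, the substrate of the S6 kinases, was read in the test by a dim probe set, at 6.57, 5.42 and 6.67 in WT and 6.63, 6.43 and 6.91 in KO. The difference of 0.44 ± 0.31 turned on WT replicate 2, without which it was 0.037, and its interval ran from −0.28 to 1.16. Rps25, a protein of the 40S head used in initiation at some viral mRNAs, read 9.69, 9.89 and 9.11 in WT and 9.85, 9.86 and 9.73 in KO. The groups overlapped and the low array was WT replicate 3 (0.25 ± 0.18, interval −0.16 to 0.66). Averaged over the 20 genes of the 40S subunit the deviations were −0.043, −0.034 and −0.014 in WT and 0.026, 0.025 and 0.040 in KO. Without Rps6 WT replicate 2 moved to 0.017, level with KO replicates 1 and 3 (0.017 each), and the groups then touched. This step was chosen after the values were seen. After quantile normalization, with Rps6 kept, the deviations were 0.046, −0.052 and −0.036 in WT and 0.015, 0.011 and 0.016 in KO, so WT replicate 1 was the highest array and the groups overlapped.

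Among the other 40S genes, Rps3, which also has a part in DNA repair, had its 3 probe sets at −0.026, −0.097 and −0.112. The dim one at −0.097 read 7.04, 7.10 and 7.0 in WT and 7.03, 6.91 and 6.90 in KO, with overlap. Rps24 had 6 tested probe sets with differences from −0.07 to 0.07, the 4 bright ones lying between 0.002 and 0.052. Rpsa, which also serves as a laminin receptor, stood at 0.050.

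Of the 21 tested 60S genes 15 had a difference above 0 (71.4%, against 55.9% of all genes), with a median of 0.025 log2. Their mean difference was 0.027 as deposited and −0.008 after quantile normalization. Rplp0 forms the base of the stalk on which translation factors land. It read 13.69, 13.69 and 13.74 in WT and 13.82, 13.78 and 13.76 in KO, apart by 0.079 ± 0.041 or 1.06-fold (limma adjusted p = 0.993). After quantile normalization the difference was 0.024 and WT replicate 1 was the highest array. Rplp2, the acidic stalk protein that binds it, stood at 0.062 ± 0.048 with overlapping groups. Rpl12, which lies at the base of the same stalk, had 1 dim probe set at 6.01, 6.43 and 6.08 in WT and 6.45, 6.34 and 6.34 in KO (0.20 ± 0.12), also with overlap. Rpl4, which reaches into the exit tunnel, differed by 0.025 ± 0.040 with all KO values above all WT values. After quantile normalization WT replicate 1 was its highest array, above all KO values. Of the genes below 0, Rpl10a stood at −0.051 ± 0.048, reading 12.29, 12.38 and 12.28 in WT and 12.29, 12.26 and 12.26 in KO, where the groups overlapped.

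Rpl22, an RNA-binding protein of the 60S subunit, had the widest range of differences among its own tested probe sets. They differed by 0.044, 0.011 and −0.138, the last being the dimmest. The 5 tested probe sets of Rpl35, a protein near the tunnel exit, stood between −0.012 and 0.002. Its dimmest probe set read 5.30, 5.11 and 5.08 in WT and 4.89, 4.92 and 4.95 in KO. All its KO values were lower, but it was too dim to be tested. Counted over the 91 probe sets, 7 had all KO values above all WT values (7.69%, against 7.12% of all tested probe sets) and 1 had them below (1.10%, against 3.84%). These shares lie near or under the background. After quantile normalization 0 of the 91 had all KO values above all WT values (against 5.48% of all tested probe sets), and after median centring 4 (4.40%, against 5.72%). The 7 probe sets belong to Rps3a1, Rps19, Rps29, Rplp0, Rpl4, Rpl41 and Rps18. Their separations thus hold in the deposited scaling and not after quantile normalization.

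**Figure D3:**
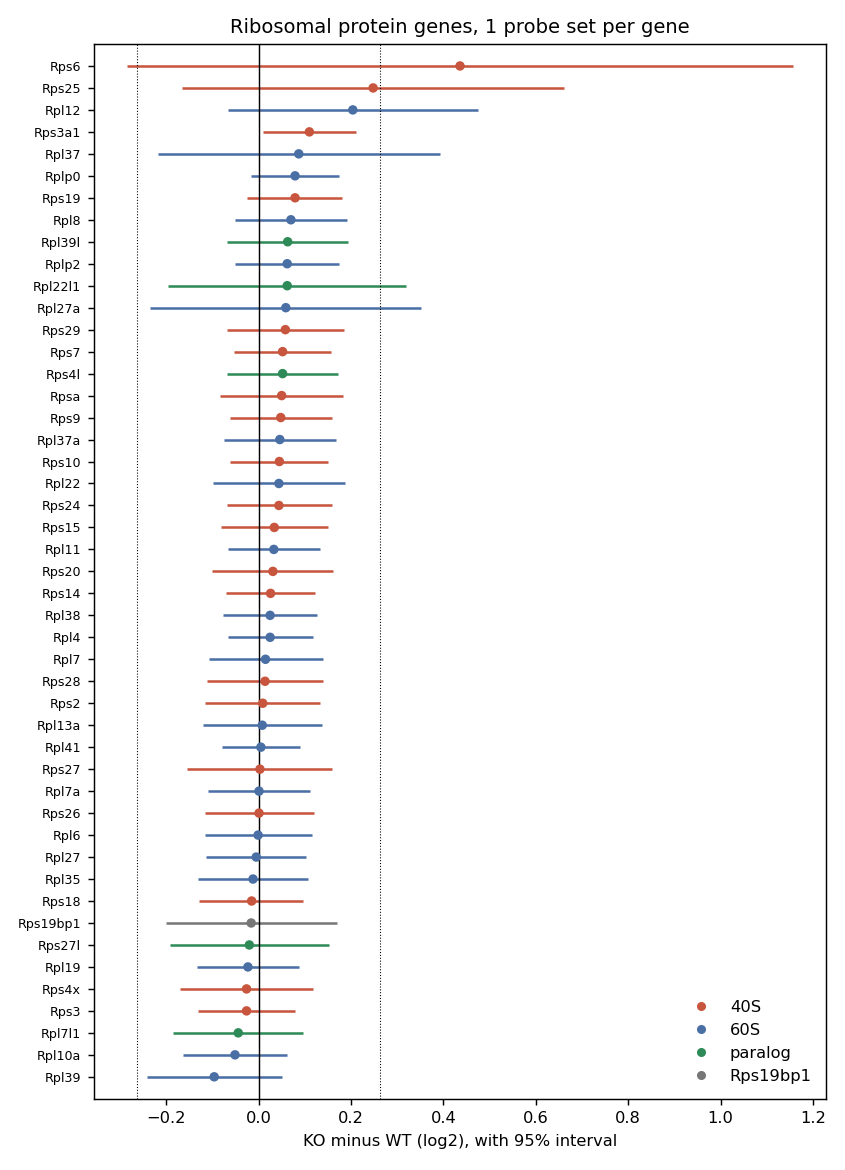
KO minus WT difference (log2, x axis) with its 95% interval for the 47 tested ribosomal protein genes, 1 probe set per gene, in order of the difference. Colours mark 40S genes, 60S genes, paralogs and Rps19bp1, and dotted lines mark a 1.2-fold change. Rps3a1 alone has an interval that leaves out 0 before adjustment (0.009 to 0.211), and Rps6 has the widest (−0.28 to 1.16).

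The 1 tested probe set of the family wholly lower in KO belonged to the X-linked gene Rpl39, which encodes a short protein lining the exit tunnel. It read 8.60, 8.62 and 8.63 in WT and 8.44, 8.55 and 8.58 in KO. The groups were apart by −0.096 ± 0.063 (limma adjusted p = 0.993), with an interval from −0.24 to 0.05. They stayed apart after quantile normalization (−0.103), and without KO replicate 1 the difference was −0.056. Its autosomal paralog Rpl39l, on chromosome 16, is expressed in spermatogenic cells and is known to be needed for normal sperm. It read 13.56, 13.75 and 13.71 in WT and 13.73, 13.74 and 13.73 in KO. The KO values lay inside the WT range (0.063 ± 0.056, limma adjusted p = 0.993). Without WT replicate 1 the difference of Rpl39l was 0.005, without WT replicate 2 it was 0.101, and after quantile normalization 0.017. The other X-linked member, Rps4x, stood at −0.026 ± 0.062 and at 0.066 ± 0.072 at its dimmer probe set, both with overlap.

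The balance of paralog and parent gene was compared within each array for 5 pairs, since a difference of log2 values shows unequal change and not which gene has more mRNA. For Rpl39l minus Rpl39 the deviations from the mean of 6 arrays were −0.18, −0.01 and −0.05 in WT and 0.16, 0.06 and 0.02 in KO. The groups did not overlap, and the shift was 0.159 log2 (exact permutation test, two-sided, p = 0.1, adjusted over the 5 pairs 0.5). With 3 arrays against 3 this test cannot go below 0.1. The shift was 0.110 to 0.194 with single arrays left out and 0.120 after quantile normalization. The probe sets differ in level (means 13.70 for Rpl39l and 8.57 for Rpl39), so a scaling of bright signals need not cancel within an array.

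Rps4l, on chromosome 6, is the autosomal paralog of Rps4x. Rps4l read 12.11, 12.05 and 12.13 in WT and 12.22, 12.13 and 12.11 in KO, with overlap, and Rps4l minus Rps4x shifted by 0.078 (exact permutation p = 0.3). In the pairs with an autosomal parent the shift was 0.018 for Rpl22l1 minus Rpl22 (exact permutation p = 0.9), −0.023 for Rps27l minus Rps27 (0.9) and −0.060 for Rpl7l1 minus Rpl7 (0.3). These shifts use the brightest probe set of each gene. With the median over a gene's tested probe sets they were 0.032 for Rps4l and 0.050 for Rpl22l1 (exact permutation p = 0.8 each). For Rps27l the shift was then −0.054 (0.8) and for Rpl7l1 −0.135 (0.4). Rpl22l1 read 12.18, 12.59 and 12.52 in WT and 12.39, 12.47 and 12.62 in KO, with WT replicate 1 the lowest and overlapping groups. Rps27l, a target of p53, differed by −0.051, −0.020 and −0.005 at its 3 probe sets. Rpl7l1 had the lowest difference of any tested member at 1 of its 3 probe sets, with 9.08, 9.0 and 9.09 in WT and 9.04, 8.89 and 8.78 in KO (−0.16 ± 0.08, limma adjusted p = 0.993). Its groups overlapped, and its other probe sets stood at −0.044 and −0.010.

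Rpl3l, a paralog known from heart and skeletal muscle, read from 5.27 to 5.72 in WT and from 5.63 to 5.82 in KO, under the level filter. Rps19bp1, taken by its name alone, encodes a binding partner of Rps19 and no part of the ribosome. It stood at −0.016 ± 0.079.

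**Figure D4:**
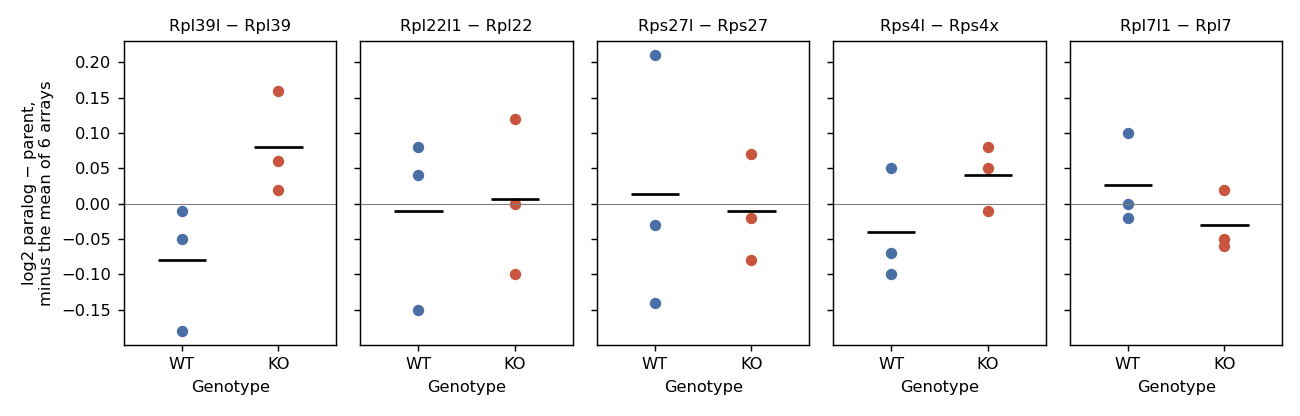
Difference between the log2 values of a paralog and its parent gene, minus its mean over 6 arrays (y axis), for WT (blue) and KO (red). Points are arrays and bars are group means. Only Rpl39l minus Rpl39 has no overlap between the groups, with WT from −0.18 to −0.01 and KO from 0.02 to 0.16.

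Genes that build, control and use the ribosome did not pass either. Of all 13897 genes 5 passed higher and 1 lower in KO, and 766 had an unadjusted p under 0.05 (limma). Of 45 tested ribosome assembly genes 0 passed in either direction (limma, 3 at an unadjusted p under 0.05). Above 0 were 26 (57.8%, against 55.9% of all genes), with a median of 0.019 against 0.012. All KO values lay above all WT values for 3 (6.67%, against 7.95%) and below for 4 (8.89%, against 4.24%). Nop58, a core protein of the snoRNPs that guide rRNA methylation, read 10.15, 10.19 and 10.28 in WT and 10.07, 9.88 and 9.91 in KO. The groups were apart by −0.25 ± 0.07 (limma adjusted p = 0.863). Dkc1, the pseudouridine synthase of the other class of snoRNPs, read 7.73, 7.87 and 7.73 in WT and 7.63, 7.57 and 7.51 in KO, also apart (−0.21 ± 0.07, limma adjusted p = 0.898). Rrp12, a factor in the maturation and export of both subunits, went the other way. It read 9.06, 9.03 and 9.04 in WT and 9.24, 9.31 and 9.12 in KO, without overlap (0.18 ± 0.07, limma adjusted p = 0.918). Of the 16 tested genes of the RNA polymerase I machinery, which makes the rRNA precursor, 0 passed (limma, 0 at an unadjusted p under 0.05). Their median was −0.016, with 8 above 0 (50%, against 55.9% of all genes). The members of this list with the smallest p were Taf1b (−0.14 ± 0.07) and Taf1d (−0.17 ± 0.11).

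For translation initiation 0 of 32 genes passed (limma, 1 at an unadjusted p under 0.05), with a median of 0.022. Eif5b, which joins the subunits, read 11.07, 11.14 and 11.23 in WT and 11.40, 11.30 and 11.27 in KO, without overlap (0.18 ± 0.06, limma adjusted p = 0.909), and Eif4b stood at 0.10 ± 0.06. For elongation and termination 0 of 11 passed (limma, 0 at an unadjusted p under 0.05), with Eef1a1 at 0.068 ± 0.046 and Eef2k at −0.18 ± 0.10. For the mTOR and TOP mRNA regulators 0 of 18 passed (limma, 0 at an unadjusted p under 0.05), with Mtor at 0.13 ± 0.09 and Eif4ebp1, the repressor it acts on, at 0.11 ± 0.07. Differences above 0 were found for 22 of the 32 initiation genes (68.8%) and 7 of the 11 elongation and termination genes (63.6%). They were found for 15 of the 18 regulators (83.3%), against 55.9% of all genes. Fau, whose product is split into a ubiquitin-like protein and a protein of the 40S subunit, stood at 0.032 ± 0.049.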

How the data were processed

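Total RNA of whole testes (RNA integrity numbers 9.8 to 10, per the labels) was labelled with biotin in 1 cycle. The authors deposited 1 table of normalized log2 values for 45101 probe sets. GCOS 1.4 is named in the submitters' processing notes, which do not give the normalization. Values from 2.61 to 15 show a log2 scale. A normalization that equalises arrays hides a change shared by all transcripts, and very bright probe sets can be compressed.

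After removal of 64 control probe sets, 27022, the upper 60% by mean log2, were tested with limma (version 3.58.1, R 4.3.3; lmFit, eBayes with intensity trend, two-sided, Benjamini-Hochberg over all of them, threshold 0.05), KO against WT, as labelled. Standard errors are the moderated ones. Per gene, the brightest tested probe set was used. The fit was tested on simulated data in which every value varied independently, so shifts shared by the probe sets of an array were not covered. Genes came from the platform annotation, with names and chromosomes from RefSeq (GRCm38.p6). A single gene was listed for 34945 probe sets, several for 932 and none for 9160.

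Members and lists were chosen with earlier results of these data known. Named genes were all paralog and parent pairs and X-linked members, the 6 smallest p in each direction, the 5 highest and lowest levels, the 3 genes whose probe sets differed most, and 2 genes per other list. Others (Rrp12, Rps25, Rpl4, Rpl35, Rplp2, Rpsa, Rps19bp1 and the start-site examples) were picked after their values were seen. Alternatives were quantile normalization, median centring, other filters, no trend, a replicate block, other choices of probe set and leaving out arrays. Figures were drawn with matplotlib 3.10.9.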

Additional observations from a re-analysis of the deposited data

How the results depend on the processing

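No ribosomal protein probe set passed under any alternative run of the limma fit, leaving out each array included (smallest adjusted p 0.233, without WT replicates 1 and 2 together, which was chosen after seeing the data). The count over all probe sets, 11, was 7 with the upper 40% kept, where fewer were tested, 4 without WT replicates 1 and 2 together, and 2 to 12 with single arrays left out (6 without KO replicate 1, 2 without KO replicate 3, 4 without WT replicate 3). The median of 47 ribosomal protein genes, 0.031, was −0.008 after quantile normalization and −0.001 to 0.045 with single arrays left out. The number of genes above 0, 35, was 19 after quantile normalization and 23 to 39 with single arrays left out. The cause was not tested.

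Replicate numbers are shared by the groups. Deviations of same-numbered arrays had correlations of 0.223, −0.024 and 0.096, and those of other pairs ran from −0.279 to 0.252. With 3 arrays per group, these values cannot tell whether same-numbered arrays share more than a number. The replicate block gave 9 calls in place of 11, 0 among members and the same median, 0.031, and WT replicate 2 correlated best with KO replicate 3 (0.252).

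Differences near 0 changed sign. Quantile normalization gave −0.008 for Rps27, −0.012 for Rpl7, −0.007 for Rps20, −0.034 for Rps28, −0.043 for Rpl41, −0.013 for 1 probe set of Rpl22, −0.009 for Fau, and −0.004, −0.036 and −0.003 for 3 probe sets of Rps24. Median centring gave −0.008 for Rps27, −0.006 for Rpl41 and −0.009 for Rps24. With single arrays left out, values ran from −0.064 to 0.143 for Rpl22l1, −0.009 to 0.099 and −0.004 to 0.029 for Rpl22, −0.072 to 0.049 for Rps27l, −0.026 to 0.030 for Rps27, −0.064 to 0.019 for Rps4x, −0.025 to 0.057 for Rpl7, −0.028 to 0.064 for Rps20, −0.040 to 0.045 for Rps28, −0.003 to 0.016 for Rpl41, −0.054 to 0.208 for Rpl27a, −0.073 to 0.045 for 1 probe set of Rpl7l1, −0.001 to 0.063 for Fau, and −0.133 to 0.020, −0.040 to 0.040 and −0.028 to 0.089 for Rps24. The paralog shift ran from −0.054 to 0.071 for Rpl22l1 and from −0.100 to 0.075 for Rps27l. Other small differences kept their sign but moved by more than 1.5 times, such as Rpl12 (0.123 without WT replicate 1, 0.331 without WT replicate 2), Rpl10a (−0.020 without WT replicate 2) and a dim probe set of Rps3 (−0.014 without WT replicate 1). Of the other checks on named probe sets, 542 kept sign and side of the threshold, and 1 probe set of Alkbh1 passed only with the block (adjusted p = 0.0199).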
